A study of Mus musculus with 4 samples.

Results

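Proneural basic helix-loop-helix (bHLH) factors are transcription factors that turn dividing ectodermal or neural progenitors into neurons. The set described here holds 9 genes, chosen by name: the neurogenins Neurog1, Neurog2 and Neurog3, the NeuroD factors Neurod1 and Neurod4, the Atonal relatives Atoh1 and Atoh7, and the Hes family members Hes5 and Hes6. They were followed among 43346 gene entries in RNA-seq of 4 facial outgrowths: the lateral and medial nasal processes, which build the nose, and the maxillary and mandibular processes, which build the jaws. Each process of wild-type mouse embryos at e11.5 (embryonic day) gave 1 library of freshly dissected tissue with mixed cell types, so there are no replicates, no treatment and no p-values. The bracketed abbreviation in the tissue label of the medial nasal library reads LNP, whereas its title and spelled-out tissue name say medial nasal, and the latter were followed. The number of embryos in a library is not given in the sources used here.

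In the head ectoderm, neurogenins start neuron formation in the cranial and olfactory placodes, and NeuroD factors act after them as the cells leave the cell cycle and differentiate. Proneural factors bind E-box DNA as dimers with E proteins, raise Notch ligands on the cell surface, and so switch on Hes repressors such as Hes5 in neighbouring cells, which hold those cells as progenitors. Hes6 is the exception in its family, because it opposes other Hes proteins and is itself switched on by proneural factors. The nasal processes surround the olfactory pits, whereas the maxillary and mandibular processes belong to the first pharyngeal arch.

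Total expected counts lay between 13216161 and 16163874 per library. Levels within a gene are in CPM, that is, per 1000000 counts after scaling between libraries, with exact Poisson 95% intervals that cover counting error only. In figures a count of 0 is drawn at a floor of 3 counts, which is 0.185 to 0.223 CPM. The upper interval bound for a count of 0 was slightly higher, at 0.227 to 0.274 CPM. Between genes, levels are compared as TPM, a share of transcripts that is corrected for gene length. Where 4 values stand in a row, the order is lateral nasal, then medial nasal, then maxillary, and last mandibular. All 6 facial mesenchyme markers were above 0 in all 4 libraries, with a summed level of 2920 to 3690 CPM, and all 10 epithelial markers were above 0 as well, with 239 to 398 CPM. Of the epithelial markers, Krt8, Krt18 and Cldn7 were at least 2-fold higher in both nasal libraries, for example Krt8 with 49.7 and 49.8 CPM in nasal and 19.4 and 17.1 CPM in first arch tissue. Krt5, Krt14, Trp63 and Perp were instead highest in the maxillary library, for example Krt14 with 33.5, 23.8, 66.2 and 33.8 CPM.

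The upstream DNA of 4 members is shown first: Hes5, Hes6 and Neurod4, the members above 1 CPM whose windows held 2 or more matches to a motif searched here, and Neurog1, whose window held none. The RefSeq promoter table of GRCm38.p6, the build of the authors' alignment (mm10), had an entry for all 9 genes, and Neurod4 and Hes6 each had 2 annotated starts. The 250 bases before each start were searched on both strands for the E-box CANNTG, for the N-box CACNAG, a Hes-type site, and for TGGGAA, the core read by Rbpj, the DNA-binding partner of Notch. Matches of different motifs may overlap. Of 32851 promoters, 66.2% held an E-box, 36.7% an N-box and 21.6% the Rbpj core. Capitals mark matches, and each sequence reads 5′ to 3′ on the strand of its gene.

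Hes5 (chr4:154960673-154960922, + strand, 2 Rbpj cores around 1 E-box): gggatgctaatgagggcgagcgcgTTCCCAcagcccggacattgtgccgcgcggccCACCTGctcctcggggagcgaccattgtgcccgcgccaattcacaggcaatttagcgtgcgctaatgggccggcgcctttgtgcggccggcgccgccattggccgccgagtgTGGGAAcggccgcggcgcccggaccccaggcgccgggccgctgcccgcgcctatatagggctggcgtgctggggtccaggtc
Hes6 start 1 (chr1:91414039-91414288, - strand, 3 E-boxes): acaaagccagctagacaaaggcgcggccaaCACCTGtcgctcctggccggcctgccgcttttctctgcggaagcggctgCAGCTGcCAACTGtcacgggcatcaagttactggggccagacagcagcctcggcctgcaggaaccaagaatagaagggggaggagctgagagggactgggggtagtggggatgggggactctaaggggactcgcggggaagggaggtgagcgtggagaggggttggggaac
Neurod4 start 1 (chr10:130280255-130280504, - strand, 2 N-boxes): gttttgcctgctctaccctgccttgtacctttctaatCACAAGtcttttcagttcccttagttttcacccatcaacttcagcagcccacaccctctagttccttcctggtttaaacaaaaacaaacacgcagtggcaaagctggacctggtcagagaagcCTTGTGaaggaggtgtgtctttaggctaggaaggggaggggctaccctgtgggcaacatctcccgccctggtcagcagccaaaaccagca
Neurog1 (chr13:56252181-56252430, - strand, no match): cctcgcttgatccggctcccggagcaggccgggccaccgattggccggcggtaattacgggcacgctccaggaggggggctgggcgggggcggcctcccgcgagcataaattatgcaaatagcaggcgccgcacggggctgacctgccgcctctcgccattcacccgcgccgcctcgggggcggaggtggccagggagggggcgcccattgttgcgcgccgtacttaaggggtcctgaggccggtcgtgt

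The Hes5 sequence held the Rbpj core from base -226 to -221 on the opposite strand and from -82 to -77 on its own strand, counted back from the base before the start. Promoters with 2 or more Rbpj cores made up 2.77% of all. Hes6 start 1 held E-boxes beginning at -220, -171 and -164, and 12.2% of promoters held 3 or more. Neurod4 start 1 held N-boxes beginning at -213 and -90, and 8.18% of promoters held 2 or more. Hes6 start 2 held 1 E-box and 1 N-box, and Neurod4 start 2 held 1 N-box. Neurod1 and Neurog3 each held 1 E-box, and Atoh7 held 3 E-boxes and 1 Rbpj core. Neurog1, Neurog2 and Atoh1 held no match to any of the motifs in their windows. Hes5, Hes6 and Neurod4 were picked for their matches, so the shares of all promoters beside them cannot show an excess. Whether the members hold more matches than other promoters was not tested. A match in these letters is no evidence of binding, and no binding data were used here.

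**Figure D1:**
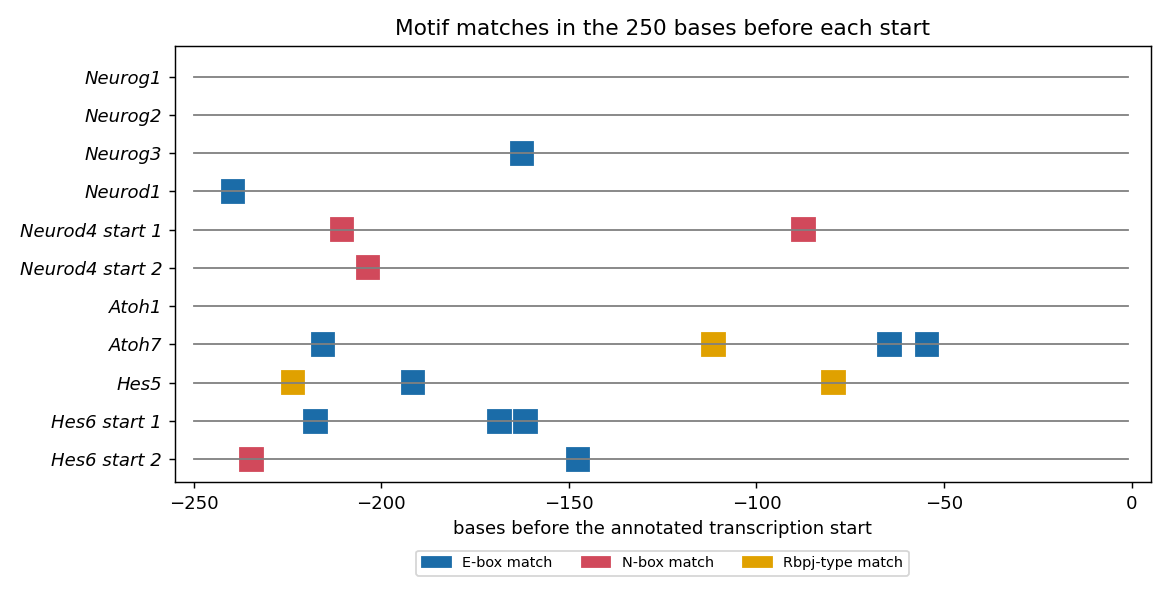
Positions of motif matches in the 250 bases before each annotated start of the 9 genes; the horizontal axis gives bases before the start, each grey line is a promoter window and each coloured box a match on either strand. The Rbpj core occurs in the windows of Hes5, 2 times, and Atoh7, 1 time, and the windows of Neurog1, Neurog2 and Atoh1 are empty.

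Of the neurogenins, Neurog1 and Neurog2 were measured mainly in nasal tissue, and Neurog3 did not exceed 1 count. Neurog1, the neurogenin known for starting sensory neuron formation in the trigeminal and otic placodes and the olfactory epithelium, lies on chromosome 13 from 56250478 to 56252163 on the minus strand (ENSMUSG00000048904.4). Lateral nasal tissue gave 49 counts and medial nasal tissue 43, against 4 in maxillary and 1 in mandibular tissue. The nasal libraries stood together at 3.02 CPM (interval 2.23 to 3.99) and 3.18 CPM (2.30 to 4.28), above 0.263 CPM (0.0718 to 0.675) in maxillary and 0.0742 CPM (0.00188 to 0.414) in mandibular tissue. The medial over lateral fold was 1.05 (0.683 to 1.62), so these libraries did not differ beyond counting error, and the same held for the maxillary over mandibular fold of 3.55 (0.351 to 175). With counts pooled, the nasal libraries exceeded the first arch libraries 17.7-fold (7.32 to 55.8), with 92 of all 97 Neurog1 counts. In a bulk library, fewer cells of a type and less RNA per cell cannot be told apart, here and in all values that follow.

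Neurog2, which acts in epibranchial placodes, cranial sensory ganglia and the central nervous system, set the medial nasal library apart. This gene lies on chromosome 3 from 127633135 to 127635631 on the plus strand (ENSMUSG00000027967.7). Its counts were 41 in medial nasal and 17 in lateral nasal tissue, with 4 in mandibular and 1 in maxillary tissue. Its level of 3.03 CPM (2.17 to 4.11) in the medial nasal library was 2.90-fold (1.61 to 5.44) that of the lateral nasal library, at 1.05 CPM (0.609 to 1.68). The lateral nasal library in turn exceeded the mandibular library 3.52-fold (1.15 to 14.4), and the mandibular and maxillary libraries did not differ beyond counting error (4.51-fold, 0.446 to 222). The pooled nasal level was 11.2-fold (4.52 to 35.7) the pooled first arch level.

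Neurog3, the neurogenin of pancreatic and gut endocrine cells, was at 0 counts in 3 libraries and at 1 count in the maxillary library. It lies on chromosome 10 from 62133090 to 62134763 and overlaps Fam241b on the opposite strand, which had 50 to 78 counts. Atoh1, the factor of inner ear hair cells and cerebellar granule neurons (chromosome 6, 64729125 to 64731245), had 1 count in medial nasal and 2 in mandibular tissue, and 0 in the other libraries. Atoh7, which the first retinal neurons need, had 1 count in the lateral nasal library and 0 elsewhere (chromosome 10, 63099651 to 63101279). No difference in these 3 genes was detectable at this depth, since no library held more than 3 counts.

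The NeuroD factors followed different patterns. Neurod1 promotes differentiation of neurons after neurogenin expression and lies on chromosome 2 from 79452521 to 79456751 on the minus strand (ENSMUSG00000034701.9). There were 136 lateral nasal and 155 medial nasal counts, and 17 maxillary and 3 mandibular counts. In CPM the order was medial nasal at 11.46 (9.72 to 13.4), lateral nasal at 8.37 (7.02 to 9.90), maxillary at 1.12 (0.652 to 1.79) and mandibular at 0.223 (0.0459 to 0.651). Each step in this order exceeded counting error. The medial over lateral step was the smallest, 1.37-fold (1.08 to 1.74), followed by 5.03-fold (1.45 to 26.8) for maxillary over mandibular and 7.48-fold (4.50 to 13.21) for lateral nasal over maxillary. Cerkl, which overlaps Neurod1 on the same strand, had 8 or 9 counts in every library and so did not share the gradient.

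Neurod4, known from retina, midbrain, hindbrain and cranial ganglia, was highest in the medial nasal library and second in the maxillary library. It lies on chromosome 10 from 130268152 to 130280240 on the minus strand (ENSMUSG00000048015.3). Medial nasal tissue gave 27 counts and maxillary tissue 9, with 2 in lateral nasal and 1 in mandibular tissue. In library order this was 0.123, 1.996, 0.593 and 0.0742 CPM. The nasal libraries were thus far apart for this gene, with a medial over lateral fold of 16.2 (4.07 to 141), whereas they were close together for Neurod1. The medial nasal level was 3.37-fold (1.54 to 8.14) the maxillary level. The maxillary level was 4.82-fold the lateral nasal level with an interval of 0.997 to 45.8, which did not pass counting error, and it was 7.99-fold (1.11 to 350) the mandibular level.

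Hes5, a Notch-induced repressor that keeps neural progenitors from differentiating, was concentrated in the medial nasal library. It lies on chromosome 4 from 154960923 to 154962371 on the plus strand (ENSMUSG00000048001.7), next to the upstream sequence with 2 Rbpj cores shown above. Its 100 medial nasal counts compare with 9 lateral nasal, 8 maxillary and 3 mandibular counts. At 7.39 CPM (6.01 to 8.99), the medial nasal library stood 13.3-fold (6.75 to 30.0) above the lateral nasal library at 0.554 CPM. The other 3 libraries were not separated: lateral nasal over maxillary was 1.05-fold (0.360 to 3.13) and maxillary over mandibular 2.37-fold (0.568 to 13.8). The antisense gene Gm20421, which overlaps Hes5, had 0 to 2 counts.

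Hes6 was the most abundant member in every library and the one with the smallest range. It lies on chromosome 1 from 91411483 to 91414038 on the minus strand (ENSMUSG00000067071.4). Counts were 606 and 636 in lateral and medial nasal tissue, and 349 and 370 in maxillary and mandibular tissue. Levels were 37.3 CPM (34.4 to 40.4), 47.0 CPM (43.4 to 50.8), 23.0 CPM (20.6 to 25.5) and 27.5 CPM (24.7 to 30.4) in the same order. Each neighbouring pair differed beyond counting error, by 1.26-fold (1.13 to 1.41) for medial over lateral nasal, 1.36-fold (1.19 to 1.55) for lateral nasal over mandibular and 1.19-fold (1.03 to 1.39) for mandibular over maxillary. Pooled, the nasal libraries exceeded the first arch libraries 1.66-fold (1.52 to 1.82), the smallest such fold among the 6 members with at least 1 CPM.

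**Figure D2:**
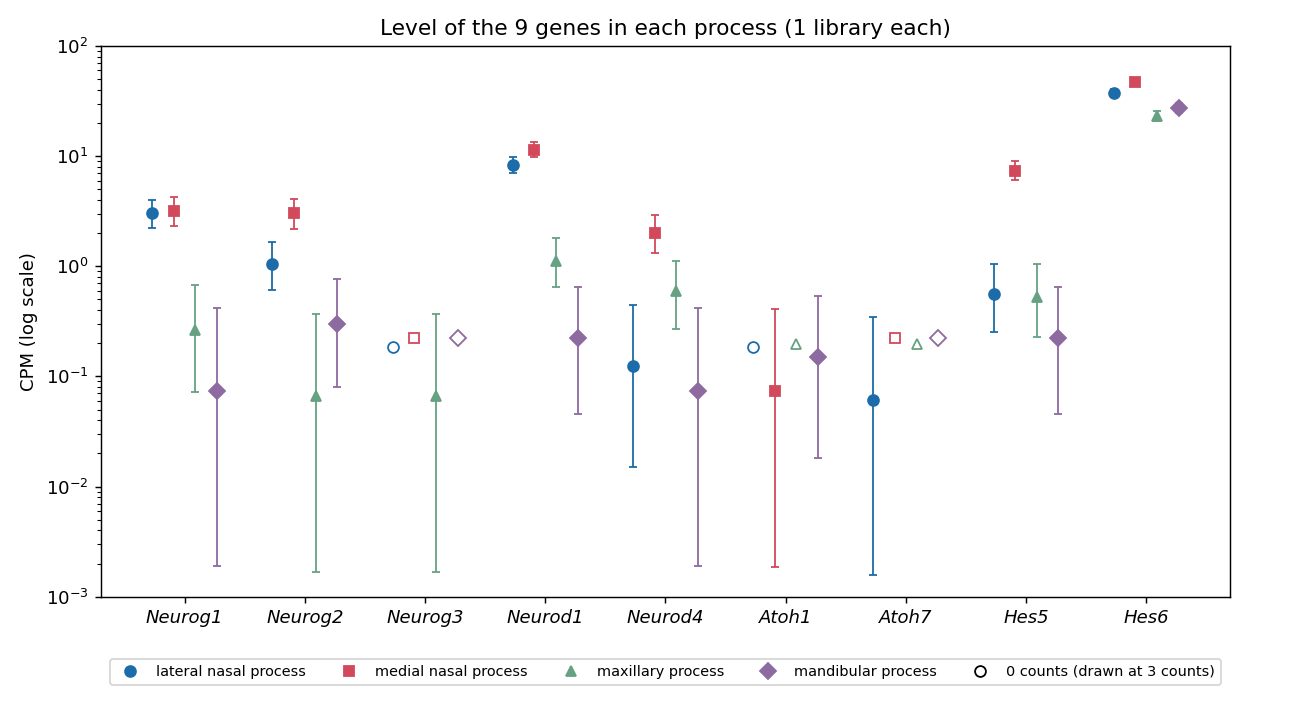
Level of each of the 9 genes in CPM on a log axis, with 1 point per library and exact Poisson 95% intervals as bars; open symbols mark 0 counts, drawn at the level of 3 counts. Neurog1 and Neurod1 are high in both nasal libraries, Neurod4 and Hes5 stand out in the medial nasal library alone, and Hes6 stays between 23.0 and 47.0 CPM.

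Differences were called by size. To be higher in a library, a gene needed a minimum of 1 CPM and 2 times the level of the next library. To be lower, a gene needed at least 1 CPM in all other libraries and a level at least 2-fold below their lowest. It was called higher in a pair of libraries when the lower of the pair was at least 2-fold above the higher of the others. Of the 9 members, 6 reached 1 CPM in at least 1 library and were tested, as were 16146 genes in all. Neurog1 and Neurog2 reached 1 CPM in the nasal libraries alone, and Neurod4 and Hes5 in the medial nasal library alone. For these genes the minimum itself favoured a nasal excess. Neurog2 reached 1 CPM only narrowly in the lateral nasal library, at 17 counts where 16.2 counts make 1 CPM. Neurod1 did so narrowly in the maxillary library, at 17 counts where 15.2 make 1 CPM, and its mandibular call needs that level.

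Of the 9 members, 6 of which were tested, 3 were higher in the medial nasal library, beside 2.21% of all genes tested. These were Neurog2, Neurod4 and Hes5. Likewise 3 members were higher in both nasal libraries, Neurog1, Neurog2 and Neurod1, beside 1.61% of all genes. Neurog2 counts under both. Neurod1 was called lower in the mandibular library, beside 0.749% of all genes. Neurog1, Neurog2, Neurod4 and Hes5 were below 1 CPM in both first arch libraries and so could not be called lower in any library. No member was higher in the lateral nasal library (0.427% of all genes), in the maxillary (0.384%) or mandibular library (1.57%), or in both first arch libraries (0.557%). Only Neurod1 and Hes6 had the 1 CPM needed in maxillary tissue, and only Hes6 in mandibular tissue. None was lower in the lateral nasal (0.471%), medial nasal (0.303%) or maxillary library (0.471%), where only Hes6 could be called. Hes6 was not called in any comparison. At a 3-fold threshold, where 0.861% of all genes were higher in the medial nasal library, Neurog2 lost its call there. At a minimum of 5 CPM Hes5 alone kept a medial nasal call, beside 1.17% of all genes. Neurod1 alone then kept a call in both nasal libraries, beside 1.01%.

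**Figure D3:**
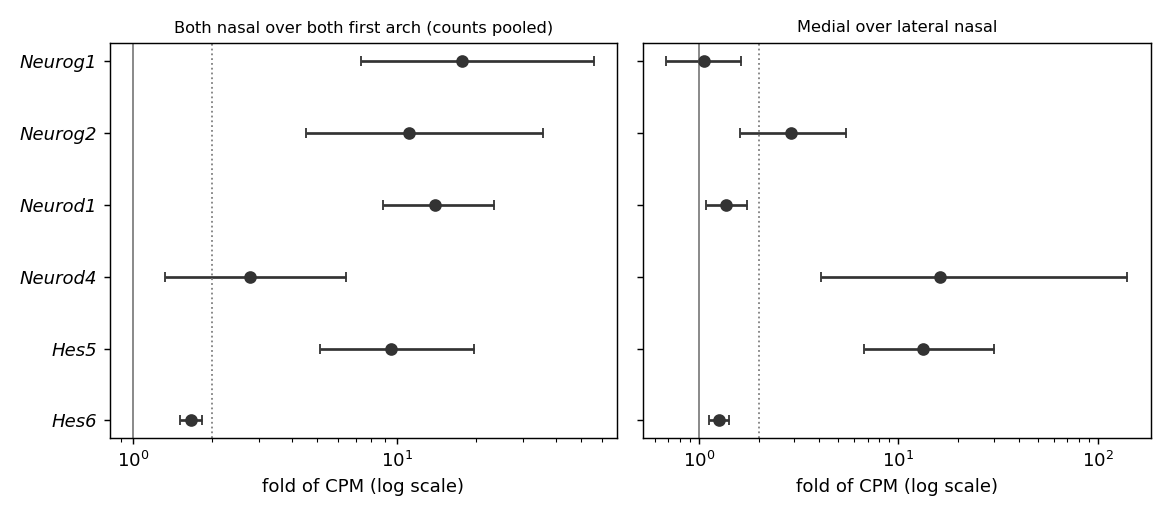
Folds of CPM on a log axis for the 6 members with at least 1 CPM, with 95% intervals for counting error; the left panel pools counts of both nasal and of both first arch libraries, the right panel sets the medial over the lateral nasal library, and the dotted line marks 2-fold. The folds in the left panel run from 1.66 for Hes6 to 17.7 for Neurog1. In the right panel Neurod4 and Hes5 exceed 13-fold while Neurog1 lies at 1.05. Neurog1, Neurog2, Neurod4 and Hes5 reached 1 CPM in nasal libraries alone, so that minimum itself favoured a nasal excess.

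Per length, the members kept one order in the medial nasal library and another in the lateral. The medial nasal library had 33.21 TPM of Hes6, 5.63 of Hes5, 3.77 of Neurod1, 1.80 of Neurog1, 1.24 of Neurog2 and 0.53 of Neurod4. In the lateral nasal library Hes6 was followed by Neurod1 at 2.81 TPM and Neurog1 at 1.73 TPM, with Neurog2 at 0.44, Hes5 at 0.43 and Neurod4 at 0.03 TPM. Hes5 thus ranked second in the medial nasal library but below Neurod1 and Neurog1 in the lateral nasal library. There Hes5 and Neurog2, on 9 and 17 counts, were too close to be put in order.

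Ratios within a library do not depend on its scaling. They use the same counts as the medial over lateral folds and so restate them. Those folds were 16.2 for Neurod4 beside 1.37 for Neurod1, and 13.3 for Hes5 beside 1.26 for Hes6. Neurod4 and Hes5 reached 1 CPM in the medial nasal library alone. How often other gene pairs differ as much between the nasal libraries was not tested. The Neurog2 to Neurog1 ratio per length was 0.251 (0.136 to 0.444) in the lateral nasal and 0.691 (0.439 to 1.09) in the medial nasal library, with intervals that just touch. For Neurod4 to Neurod1 it was 0.0119 (0.00142 to 0.0437) in lateral nasal, 0.140 (0.0897 to 0.212) in medial nasal and 0.427 (0.168 to 1.01) in maxillary tissue. For Hes5 to Hes6 it was 0.0160 (0.00729 to 0.0306) in lateral nasal, 0.170 (0.136 to 0.210) in medial nasal, 0.0240 (0.0103 to 0.0478) in maxillary and 0.00878 (0.00180 to 0.0259) in mandibular tissue. The Neurod1 to Neurog1 ratio was close in both nasal libraries, at 1.62 (1.16 to 2.29) and 2.10 (1.49 to 3.02), and its maxillary value of 2.48 (0.809 to 10.1) overlapped both.

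**Figure D4:**
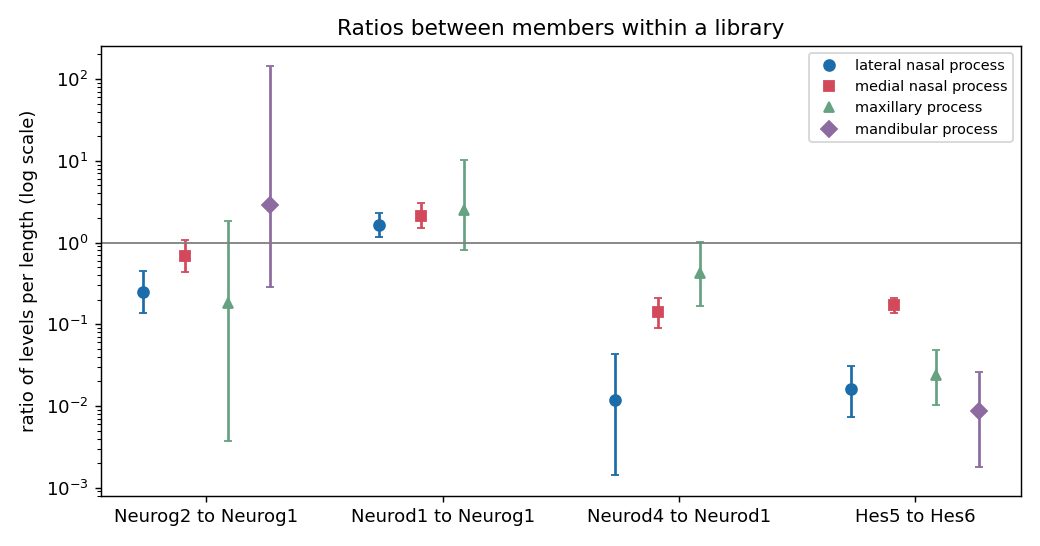
Ratios of levels per length between 4 pairs of members within each library, on a log axis, with 95% intervals for counting error; points are left out where neither gene had more than 3 counts. The Hes5 to Hes6 ratio is 0.170 in the medial nasal library and below 0.03 in the other 3, and the Neurod1 to Neurog1 intervals overlap.

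Other bHLH factors of neural cells were examined beside the members. Of 13 listed genes, 6 reached 1 CPM. Of these, 4 were higher in both nasal libraries (Nhlh1, Nhlh2, Olig1 and Olig2) and 2 in the medial nasal library (Olig2 and Tal2). Their median log2 difference to the mean of the other libraries was 2.29 in the medial nasal and 1.06 in the lateral nasal library, and -1.37 and -1.47 in the maxillary and mandibular libraries, where the median of all genes tested lay between -0.01 and 0.01. Nhlh1, a bHLH gene of newly formed neurons, had 5.60, 7.76, 0.988 and 0.0742 CPM, an order like that of Neurod1.

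The general partners of the proneural factors, the E proteins Tcf3, Tcf4 and Tcf12, with which proneural factors pair on DNA, were expressed in every library at 208 to 694 CPM and 0 of 3 were called in any comparison. The Id proteins bind E proteins and keep them from DNA. Of 4 Id genes, Id4 was called higher in both nasal libraries and lower in the mandibular library, with 19.1, 20.8, 7.11 and 2.75 CPM. Id1, Id2 and Id3 were not called, and their levels were lower in medial than in lateral nasal tissue, for example Id3 at 76.9 and 128 CPM.

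On the Notch side, 2 ligand genes were called in the same library as Hes5, and 0 of 4 receptor genes were called. Of 18 Notch receptors, ligands and mediators, Dll1 and Dll3 were higher in the medial nasal library, Mfng in both nasal libraries and Dlk1 in the mandibular library. Dll1, the ligand raised by proneural factors, had 2.95, 12.9, 3.23 and 5.20 CPM, a medial over lateral fold of 4.35 (3.15 to 6.12). Dll3, which is known to lower Notch signalling within a cell, had 0.862, 2.44, 0.132 and 0.223 CPM. Notch1 was at 76.7, 137, 81.1 and 95.5 CPM and was not called. Of 12 other Hes and Hey repressors and Tle corepressors, 8 reached 1 CPM and Hey2, known from heart and vessels, was the only one called, lower in the medial nasal library with 10.6 CPM, against 74.0 in maxillary and 25.8 CPM in mandibular tissue. Hes1, the other main Notch-induced Hes gene, had 30.2, 21.0, 17.6 and 22.3 CPM, so its highest level was in the lateral nasal library.

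**Figure D5:**
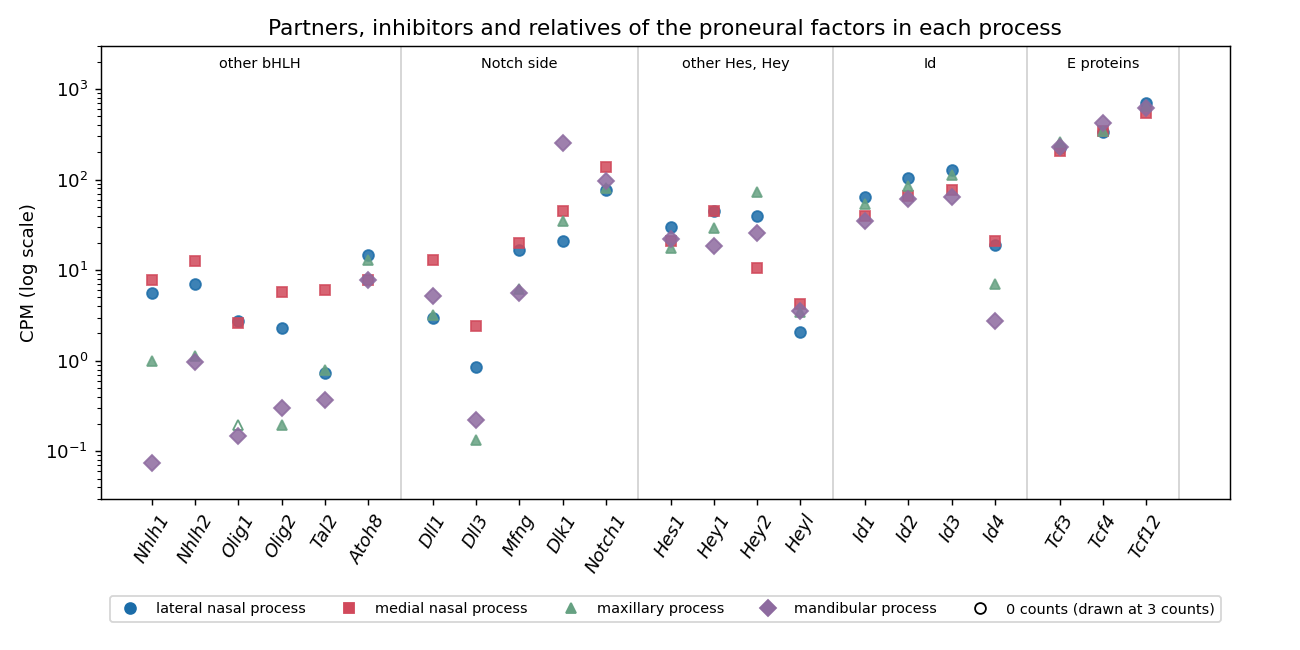
Levels in CPM on a log axis of other neural bHLH genes, Notch ligands and receptors, other Hes and Hey genes, Id genes and E protein genes, with 1 point per library; open symbols mark 0 counts, drawn at the level of 3 counts. The neural bHLH genes other than Atoh8 are spread over a wide range, with the nasal libraries above the first arch libraries for most, whereas the E protein points lie close together.

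Genes known to act after proneural factors were listed as well, and 17 of them are not members. Of the 16 that reached 1 CPM, 8 were higher in both nasal libraries: Insm1, Myt1, St18, Gadd45g, Nhlh1, Nhlh2, Elavl3 and Elavl4. In the medial nasal library 5 were higher, Myt1, Dll1, Dll3, Elavl3 and Dcx, and in the mandibular library 4 were lower, Myt1, St18, Elavl3 and Elavl4. Cbfa2t3 was lower in the maxillary library. Insm1, a zinc finger gene of cells leaving the cycle, had 5.29, 8.06, 0.922 and 0.371 CPM, in the order of Neurod1. Myt1, which lowers the response to Notch, had 5.29, 19.4, 1.78 and 0.668 CPM. The most abundant of the list did not share this order: Ebf3 was at 54.8, 79.6, 87.3 and 170 CPM, highest in the mandibular library.

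For each member with at least 20 counts, the 3 protein-coding genes nearest in pattern were found by the root mean square difference of centred log2 levels over the 4 libraries. For Neurod1 they were Nhlh1 (0.172), St18 (0.175) and Kif19a (0.177), and 2 of these, Nhlh1 and St18, were in the list of genes acting after proneural factors. For Neurog1 they were Slco4c1 (0.116), Dmrta2 (0.121) and Alx1 (0.125), the last a homeobox gene of frontonasal mesenchyme at 267, 266, 65.9 and 39.0 CPM. For Neurog2 they were Dpysl5 (0.0670), Shisal1 (0.109) and Pclo (0.111). For Neurod4 they were Syt1 (0.0860), Klhl1 (0.115) and Pou3f4 (0.150). For Hes5 they were the neural transcription factor gene Pou3f2 (0.0789), Cnpy1 (0.150) and Zic4 (0.184), and Pou3f2 had 1.42, 12.4, 1.45 and 0.817 CPM. For Hes6 the nearest were Ttll10 (0.0266), Gabbr2 (0.0267) and Ypel2 (0.0318). With 4 libraries, many genes can come close in pattern.

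Some markers of other cell types differed between the same libraries as the members. Of 11 olfactory placode and pit markers, 6 were higher in both nasal libraries (Sp8, Lhx2, Six3, Fezf1, Otx2 and Pax6), and the summed level was 149.6, 197, 60.8 and 71.7 CPM in library order. Sp8, Fezf1, Otx2 and Lhx5 were at 0 in the mandibular library, where Neurod1 was lowest. Not all of this list followed the nasal pattern, since Dlx5 was called higher in the mandibular library at 17.4 CPM and Emx2 was highest in maxillary tissue at 14.1 CPM. The summed level of the 10 epithelial markers was 398, 354, 320 and 239 CPM, with median log2 differences of 0.55, 0.43, -0.37 and -0.48. Krt5, Krt14, Trp63 and Perp of this list were highest in the maxillary library. Of 14 neuron markers, 6 were higher in the medial nasal library (Elavl3, Dcx, Stmn3, Ina, Snap25 and Syt1) and 7 lower in the mandibular library, with a summed level of 294, 556, 297 and 148 CPM and none at 0. Nefl and Nefm were called lower in the lateral nasal library, at 6.52 and 3.39 CPM, although Neurog1 and Neurod1 were high there. Their part in the results for Neurog1, Neurod1 and the other members was not tested.

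In the medial nasal library, where Neurog2, Neurod4 and Hes5 were called, several markers of neural tube tissue were also higher. Of 9 forebrain neuroepithelium markers, 3 were called higher there (Sox1, Fezf2 and Nkx2-1) and 2 in both nasal libraries (Otx2 and Six3), and the summed level was 22.2, 46.6, 3.29 and 4.08 CPM. Rax and Hesx1 were at 0 in the medial nasal library. Of 9 midbrain and hindbrain markers, En2 and Barhl2 were called higher there, the summed level was 2.65, 10.6, 2.70 and 5.20 CPM, and none was at 0 there. From the same list En1 was called higher in the lateral nasal library, and Gbx2 in the mandibular and in both first arch libraries. En2 had 76 counts in the medial nasal library and 1 to 3 in the others. Sox1, a marker of neural tube progenitors, had 0.739, 7.83, 0.263 and 0.297 CPM and was 10.6-fold (5.83 to 21.2) higher in the medial than the lateral nasal library, beside 13.3-fold for Hes5. The part of these markers in the results for Neurog2, Neurod4 and Hes5 was not tested.

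Some eye markers were higher in the lateral nasal library, where no member was called higher. Of 7 such markers, 3 were called there (Pmel, Tyr and Cryaa), the summed level was 32.9, 8.20, 12.7 and 3.79 CPM, and Rax, Tyr and Cryaa were at 0 in the medial nasal library. Not all of this list followed the lateral nasal pattern, since Six6 had 1.23, 2.22, 0.724 and 0 CPM, highest in the medial nasal library. Atoh7, the member known from retina, had 1 count in that lateral nasal library. Of 10 cranial sensory neuron markers, 7 reached 1 CPM and Prph alone was called, lower in the mandibular library, while the summed level was 91.4, 145, 131 and 92.1 CPM. Pou4f1, a sensory neuron factor, had 0.0615, 3.03, 1.58 and 0.520 CPM, and like Neurod4 was highest in the medial nasal and second in the maxillary library.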

How the data were processed

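The authors depleted ribosomal RNA, made stranded libraries from total RNA and read 50 bases from one end of each fragment. Alignment to mm10 used STAR, and RSEM 1.4.1 gave gene values with GENCODE M4. The deposited expected counts are raw estimates in which a read with several matching genes is split between them. The authors also deposited TPM, corrected for effective length (in bases), and posterior mean counts. The strand setting of the counting is not given in the sources used here, so reads of overlapping antisense genes may not be told apart.

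Expected counts of 43346 genes were rounded; 26248 number-only entries and 96 spike-in entries were left out. Symbols and positions came from GENCODE M21 (GRCm38) by gene ID. CPM used trimmed mean of M values (TMM) factors from edgeR 4.0.16 over 17230 genes (minimum of 10 counts in any library). Log2 values were taken after adding 0.5 CPM. Folds carry exact conditional binomial 95% intervals (Clopper-Pearson), which cover counting error only. Calls needed 1 CPM and 2-fold. The calling procedure was checked on simulated counts. Named genes were the 9 members, the 4 most abundant and the called genes of each list, and the 3 nearest in pattern, with some of these left out for space. Hes1, Hey1, Heyl, Pou4f1, Emx2, Rax, Hesx1, Pax4, Krt5 and Perp were named outside this rule after their values were seen. Results of 4 genes of these lists are not reported here, and the list values leave them out. The members and gene lists were chosen with earlier results of these data known.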

Additional observations from a re-analysis of the deposited data

How the results depend on the processing

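With 1 library per process, the spread between embryos is unknown, and intervals cover counting error alone. At 13216161 to 16163874 counts, members below 1 CPM rest on at most 16 counts. Scaling with DESeq2 1.42.0 size factors, library totals alone, posterior mean counts or protein-coding genes alone left all 10 member counts as they were. At a 3-fold threshold, 2 members were higher in the medial nasal library (Neurod4 and Hes5), without Neurog2, and the other counts stayed. Of all genes, 0.861% were then higher in the medial nasal library, 0.774% higher in both nasal libraries and 0.217% lower in the mandibular library. The minimum level mattered more. At 5 CPM, 1 member was higher in the medial nasal library (Hes5), 1 in both nasal libraries (Neurod1) and 0 lower in the mandibular library. Neurod1 could not be called lower there, since its maxillary level of 1.12 CPM was below that minimum. The shares of all genes were 1.17, 1.01 and 0.322% in the same order. With no minimum, 1 member was higher in the lateral nasal (Atoh7), 1 in the maxillary (Neurog3) and 1 in the mandibular library (Atoh1), each on 1 or 2 counts, 1 was lower in the maxillary library (Neurog2), and 3 were lower in the mandibular library (Neurog1, Neurod1 and Hes5). In the same 5 comparisons 3.43, 3.12, 5.45, 3.34 and 3.22% of all genes were then called. With the deposited TPM the minimum became 1 TPM. Then 0 members were lower in the mandibular library, 2 were higher in the medial nasal library (Neurog2 and Hes5) and 2 in both nasal libraries (Neurog1 and Neurod1). In these comparisons 0.594, 2.14 and 1.28% of all genes were called. Levels below that minimum were 0.53 TPM for Neurod4 in medial nasal, 0.36 for Neurod1 in maxillary and 0.44 for Neurog2 in lateral nasal tissue. All 35 member folds moved by less than counting error under each of 4 alternatives, and none reversed. Of 72 list medians, 9 moved with TPM, 3 with a pseudocount of 0.1, 9 with a pseudocount of 2 and 0 with DESeq2 size factors. Sign changes occurred in 7 medians with TPM, 4 with a pseudocount of 0.1 and 1 with DESeq2 size factors, where the main value was at most 0.12 in size, among them the other Hes and Hey list (maxillary 0.12 to -0.17 with TPM). No paired analysis was possible because each process had 1 library.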

Other observations

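Endocrine markers, listed because Neurog3 and Insm1 act in endocrine cells, were also examined. Of 7, 5 reached 1 CPM, and Chgb and Pcsk2 were higher in the medial nasal library while Chga and Insm1 were higher in both nasal libraries. Their summed level was 17.8, 31.8, 13.2 and 10.2 CPM in the order used above, and Pax4 was at 0 in all 4, as Neurog3 was in all but the maxillary library. Of 8 skeletal muscle markers, 6 were higher in the mandibular library, and their summed level was 31.6, 14.5, 235 and 678 CPM. Of 6 Schwann cell precursor markers, Foxd3 alone was called, higher in the maxillary library, where Neurod4 had its second highest level. Of 10 neural progenitor markers, Sox1 and Sox3 were higher in the medial nasal library and Sox2 and Pax6 in both nasal libraries; Sox3 had 0.308, 2.66, 0.132 and 0.0742 CPM.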
